A study of Mus musculus with 27 samples.

Results

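The comparison described here was between ΔHD1/- and ΔHD1/fl mammary tumour cell lines that had both been treated with TGFβ, and it rested on 4 of the 27 libraries of the series, namely the pair of libraries labelled ΔHD1/- with TGFβ and the pair labelled ΔHD1/fl with TGFβ. Of 13270 genes tested, 173 kept the libraries of both genotypes at least 2-fold apart under TGFβ, and the text describes these and says which of their differences were absent from the untreated lines. All lines were grown from thoracic mammary gland tumours of MMTV-PyMT mice on the FVB/N background, in which the mouse mammary tumour virus promoter drives the polyoma middle T oncogene in the mammary epithelium. ΔHD1/fl cells carried, for both Bcl9 and Bcl9L, 1 allele lacking the HD1 domain and 1 floxed wild-type allele. ΔHD1/- cells had been derived from ΔHD1/fl cells with an adenovirus that expressed Cre and GFP, followed by sorting for GFP, so that the HD1-deleted allele alone remained and controls and recombined cells shared the mutant allele. Per the labels the replicates of a group were lines from different mice, and TGFβ was given at 2 ng/ml for 4 days while untreated cells received medium only. Further cells of each line had Wnt3a at 100 ng/ml for 3 days. The treatments were set up from a common plating, and all RNA was prepared in 1 session. Whether the ΔHD1/- line of a given number descends from the ΔHD1/fl line of that number is not given in the labels.

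Bcl9 and Bcl9L are adaptor proteins of the canonical Wnt pathway. Their HD2 domain holds β-catenin and their HD1 domain holds Pygopus, which reads histone marks, so that both become part of the transcription complex on TCF/LEF factors at Wnt target genes. TGFβ binds a receptor kinase pair that phosphorylates Smad2 and Smad3. In epithelial cells it is known to slow proliferation, to induce matrix genes and to bring about epithelial-mesenchymal transition (EMT), in which cells lose E-cadherin and gain mesenchymal proteins.

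Values are CPM, the reads of a gene per 1000000 reads assigned to genes. The 8 ΔHD1 libraries with or without TGFβ held 21.86 to 33.69 M reads (1 M is 1000000 reads), and 3 reads, the limit that a count of 0 allows, were worth 0.089 to 0.137 CPM. Such a floor allows for counting error alone. A gene was tested if it reached 1 CPM in at least 2 of the 27 libraries, which left 13270 genes. Lines of 1 genotype differed widely. The chi-square per degree of freedom between the pair of libraries of a group lay between 311.0 and 429.9 over genes, where 1 would be sampling noise. The defining epithelial markers Cdh1 and Epcam were present in line 1 and all but absent in line 2 of each genotype. Cdh1 (E-cadherin) stood at 606 and 0.522 CPM in the untreated ΔHD1/fl lines 1 and 2 and at 817 and 0.237 CPM in the untreated ΔHD1/- lines, and Epcam at 389.7 and 0.0746 CPM and 263 and 0 CPM. Under TGFβ, Cdh1 stood at 148 and 0.0355 CPM in ΔHD1/fl and at 4.29 and 0.288 CPM in ΔHD1/- lines. Vim (vimentin), a mesenchymal filament protein, followed the line number too, with 1424 and 3986 CPM in ΔHD1/fl and 369 and 3742 CPM in ΔHD1/- under TGFβ. For these markers line 1 stood apart from line 2 in both genotypes. Each statement below rests on 2 lines a group, among which no exact permutation test can go below p = 0.333 (two-sided). The summed level of 8 fibroblast markers was 133.7 and 1046 CPM in ΔHD1/fl lines and 52.2 and 873 CPM in ΔHD1/- lines, with 1 marker at 0 in all 4 libraries. Of 8 leukocyte markers, 2 were at 0 in all 4 libraries and the sum lay between 3.10 and 72.5 CPM. The 5 endothelial markers summed to 0.852 to 4.84 CPM, and the 4 adipocyte markers, 3 of them at 0, to at most 0.540 CPM. None of the tested members of these lists (6, 2, 2 and 1 genes) separated the genotypes. Their part in the differences below was not tested.

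The targeted genes were read first. Bcl9, the first of the pair of adaptors (chr3:97203658-97298402 in GRCm38), was at 50.9 and 61.2 CPM in ΔHD1/fl lines and at 37.1 and 33.2 CPM in ΔHD1/- lines under TGFβ, so that the groups did not overlap, while the untreated lines overlapped (34.0 and 66.0 against 44.5 and 67.8 CPM). With Wnt3a the groups did not overlap either (104 and 80.1 against 40.1 and 48.1 CPM). The fitted difference was -0.66 ± 0.30 (SE) on the log2(CPM + 1) scale, with an adjusted p of 0.585 in limma, and was not called. Bcl9l was at 128 and 193 CPM in ΔHD1/fl and at 152 and 70.7 CPM in ΔHD1/- lines, with overlap. Gene totals do not tell the HD1-deleted from the wild-type allele, so that these values do not check the recombination. The partners of both proteins overlapped as well. Pygo2 was at 102 and 117 CPM against 127 and 100.5 CPM, and Ctnnb1, which encodes β-catenin, at 1071 and 951 CPM against 1203 and 679.9 CPM. Pygo1 exceeded 1 CPM in line 2 of each genotype only, with 0.0841 and 4.62 CPM in ΔHD1/fl and 0.119 and 2.99 CPM in ΔHD1/- lines.

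Under TGFβ, 899 genes were higher in both ΔHD1/- lines than in both ΔHD1/fl lines (6.77% of 13270 genes tested) and 3014 genes were lower (22.7%). The excess of lower genes depended on scaling. The median difference over all genes was -0.14 on the log2(CPM + 1) scale, and with median-of-ratios scaling, which set it to 0, 1749 genes were higher and 1821 lower. To look at sizes beyond this shift, a gene is called separated here if the nearest libraries of both groups lay at least 2-fold apart in CPM + 1. By this measure 54 genes were higher (0.407%) and 119 were lower (0.897%) in ΔHD1/- lines, 173 in all. With median-of-ratios scaling 77 and 91 genes were separated, and the share of higher genes among them went from 31.2% to 45.8%. All 54 higher genes and 91 of the 119 lower genes were separated on either scale. The genes next to the limit were Mdm4 just inside (101.8 and 126.7 CPM in ΔHD1/fl, 41.2 and 50.4 CPM in ΔHD1/- lines) and Pde4dip just outside (94.6 and 178.0 CPM against 357 and 641 CPM).

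**Figure D1:**
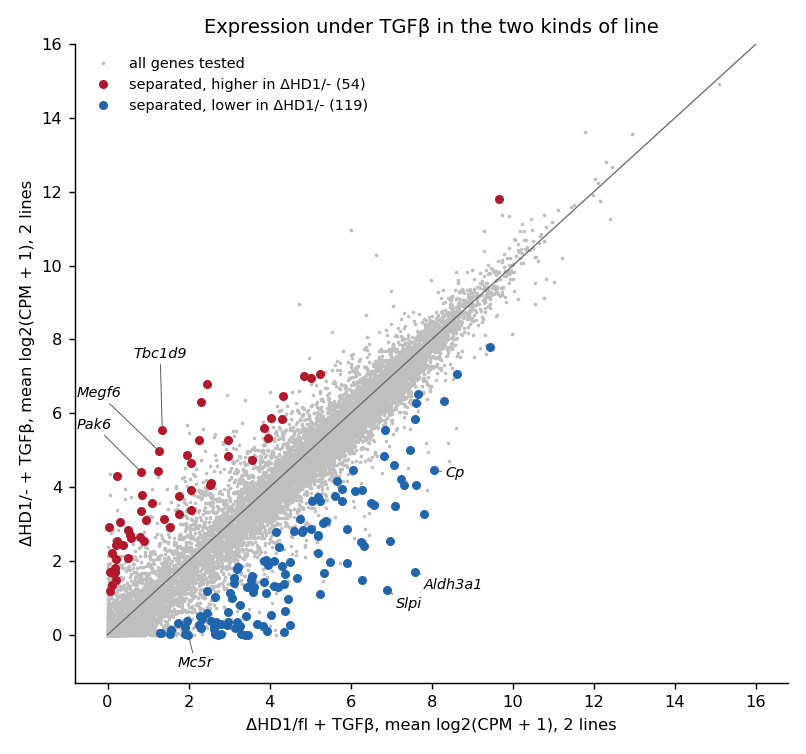
Each point is a gene, placed by its mean log2(CPM + 1) over 2 ΔHD1/fl lines (horizontal) and 2 ΔHD1/- lines (vertical) under TGFβ. Of the 54 genes separated upwards (red) Tbc1d9, Megf6 and Pak6 are labelled, and among the 119 separated downwards (blue) Aldh3a1 and Slpi lie farthest below the line of equality.

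In the limma fit over all 27 libraries, 4 of 13270 genes (0.0301%) were called under TGFβ at an adjusted p of at most 0.05 and a 2-fold difference. This fit counted libraries of 1 line under different treatments as independent. Tbc1d9 and Pak6 rose in ΔHD1/- lines relative to ΔHD1/fl lines, and Aldh3a1 and Mc5r fell. The spread that this fit uses comes from all groups, among them the ΔHD2/- lines 2 and 3, whose TGFβ-treated libraries were nearly alike (correlation across genes 0.996, against 0.906 and 0.907 with line 1). Without ΔHD2/- line 2 or without line 3, limma called Mc5r alone (adjusted p = 0.0303 and 0.0341), and adjusted p-values were 0.154 and 0.154 for Tbc1d9, 0.154 and 0.154 for Pak6, and 0.183 and 0.158 for Aldh3a1. That call leans on groups near 0, since among the libraries described below Mc5r reached 1 CPM only in treated ΔHD1/fl lines. Without ΔHD2/- line 1, limma called 17 genes. With the 4 compared libraries alone, limma called 0 genes (338 genes had an unadjusted p under 0.05, against 1091 in the fit over all libraries), and edgeR's quasi-likelihood test on reads recovered from the CPM called 0 genes (984 with an unadjusted p under 0.05).

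Tbc1d9, a member of the TBC domain family that acts on Rab GTPases, was at 1.72 and 1.39 CPM in ΔHD1/fl lines and at 80.6 and 25.6 CPM in ΔHD1/- lines. Both recombined lines were high and both control lines stayed below 2 CPM. The log2 difference was 4.19 ± 0.63 (SE, limma adjusted p = 0.0257), and without ΔHD1/fl line 1 the adjusted p was 0.0541 in limma, past the limit, as it was without ΔHD2/fl line 1 (0.0572) or line 2 (0.0571). The same order was seen without cytokine, at 0.961 and 0.746 against 54.6 and 9.56 CPM. Pak6, a p21-activated serine/threonine kinase, was at 0.0841 and 1.92 CPM in ΔHD1/fl and at 17.6 and 23.2 CPM in ΔHD1/- lines under TGFβ, and at 0 and 1.42 against 33.0 and 22.9 CPM without cytokine. Its log2 difference under TGFβ was 3.58 ± 0.57 (SE, limma adjusted p = 0.0303), and the call was lost with a pseudocount of 0.1 (adjusted p = 0.258), without ΔHD1/fl line 1 (0.0700) and without ΔHD1/- line 2 (0.0594). Across all alternatives, adjusted p-values of limma or edgeR spanned 6e-08 to 1.00 for Tbc1d9 and 0.00242 to 1.00 for Pak6. For both genes the difference was therefore present with and without TGFβ. The promoter windows of both genes and of Slpi, the gene with the widest gap in the other direction, are printed here since Bcl9 acts on DNA through TCF/LEF factors and TGFβ through Smads. Windows are RefSeq's (GRCm38.p6, 250 bases before to 50 after a start site), written 5′ to 3′ with any CTTTGA (TCF/LEF core) or CAGACA (Smad box), or their complements TCAAAG and TGTCTG, in capitals.
Tbc1d9 (chr8:83165102-83165401, plus strand): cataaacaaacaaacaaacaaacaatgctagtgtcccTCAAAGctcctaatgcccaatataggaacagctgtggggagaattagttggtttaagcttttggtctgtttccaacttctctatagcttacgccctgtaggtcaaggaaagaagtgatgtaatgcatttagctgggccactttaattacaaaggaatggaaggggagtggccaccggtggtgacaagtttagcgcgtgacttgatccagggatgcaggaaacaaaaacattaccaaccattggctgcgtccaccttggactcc
Pak6 (chr2:118663327-118663626, plus strand, the first of its 2 windows): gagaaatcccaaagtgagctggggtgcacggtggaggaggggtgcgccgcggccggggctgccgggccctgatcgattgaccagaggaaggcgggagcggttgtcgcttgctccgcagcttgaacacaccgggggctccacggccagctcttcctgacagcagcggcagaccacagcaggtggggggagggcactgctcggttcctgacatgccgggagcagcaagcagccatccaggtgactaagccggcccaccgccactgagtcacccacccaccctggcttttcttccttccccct
Slpi (chr2:164356458-164356757, minus strand): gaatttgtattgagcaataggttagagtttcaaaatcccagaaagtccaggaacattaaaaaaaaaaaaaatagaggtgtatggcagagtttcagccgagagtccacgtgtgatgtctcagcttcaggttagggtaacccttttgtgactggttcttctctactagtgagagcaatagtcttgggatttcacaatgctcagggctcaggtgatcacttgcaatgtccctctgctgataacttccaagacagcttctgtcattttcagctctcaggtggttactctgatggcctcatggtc
Tbc1d9 held 1 TCF/LEF core and no Smad box, and the windows of Pak6 and Slpi held neither. Over all 32851 windows of this length, 16.0% held the TCF/LEF core and 21.0% the Smad box. Of the windows of separated genes, 14.3% of 49 (higher) and 9.02% of 133 (lower) held the TCF/LEF core, and 20.4% and 19.5% the Smad box. Of the 173 separated genes, 123 had a window. A match is a run of letters and was not tested for binding.

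The other genes with wide upward gaps had varied roles. Megf6, which encodes a protein with EGF-like repeats, had the widest gap, at 1.14 and 1.74 CPM in ΔHD1/fl lines against 35.4 and 26.1 CPM in ΔHD1/- lines. Cd34, a surface sialomucin known from stem and endothelial cells, was at 0.210 and 0.142 CPM in ΔHD1/fl lines and at 61.6 and 5.29 CPM in ΔHD1/- lines, line 1 being the higher. Slc38a1, a glutamine transporter, was at 0.757 and 16.1 CPM against 155 and 79.2 CPM. These recombined lines lay well above the controls, yet the spread between lines left limma adjusted p-values of 0.723, 0.234 and 0.710. The membrane protein gene Itm2a was at 0.210 and 0.284 CPM against 5.04 and 10.5 CPM, and the ankyrin repeat gene Anks6, linked to cilia, at 0.589 and 0.284 CPM against 5.56 and 6.70 CPM. Syk, a non-receptor tyrosine kinase, was at 1.01 and 10.2 CPM against 38.3 and 36.9 CPM. The zinc finger gene Bnc2 stood at 0.252 and 1.56 CPM in ΔHD1/fl lines and at 7.62 and 21.0 CPM in ΔHD1/- lines. Galnt12, an enzyme of mucin-type O-glycosylation, was at 0.0420 and 0.320 CPM against 6.67 and 3.35 CPM, and Syt17, a synaptotagmin, at 0.757 and 1.60 CPM against 7.54 and 15.8 CPM. For 18 of the 54 genes both ΔHD1/fl lines stayed under 1 CPM with TGFβ, among them Cd34, Itm2a, Anks6 and Galnt12. Of the 54 higher and the 119 lower genes, 2 each were called.

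The genes with wide downward gaps had varied roles too, and the 2 called ones are given first. Aldh3a1, an aldehyde dehydrogenase that clears reactive aldehydes, stood at 76.9 and 476 CPM in ΔHD1/fl lines and at 0.715 and 5.08 CPM in ΔHD1/- lines under TGFβ. Its means were 276 ± 282 CPM (SD, n = 2) and 2.90 ± 3.08 CPM (SD, n = 2). The log2 difference was -5.90 ± 0.96 (SE, limma adjusted p = 0.0320), and without ΔHD1/fl line 2 it was -4.59 with an adjusted p of 0.0519 in limma, past the limit (range over the alternatives 0.00968 to 1.00). Mc5r, the melanocortin 5 receptor, was low throughout, at 3.95 and 2.20 CPM in ΔHD1/fl lines and at 0 in both ΔHD1/- lines. Set against 3 reads a library, its mean was at least 27.1-fold lower in ΔHD1/- lines. The log2 difference was -1.99 ± 0.24 (SE, limma adjusted p = 0.00227, 0.000116 to 1.00 over the alternatives). Mc5r was also near 0 without cytokine, with 0.366 and 0 CPM in ΔHD1/fl and 0 and 0.0297 CPM in ΔHD1/- lines, so that of these 8 libraries those of TGFβ-treated ΔHD1/fl cells alone held it above 1 CPM. It was at most 0.0405 CPM in ΔHD1 lines with Wnt3a and at most 0.355 CPM in TGFβ-treated ΔHD2 lines. Among all these libraries, Mc5r met the filter only through the group in which it was high. Its SE draws on groups near 0, and in edgeR its adjusted p was 0.389.

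Slpi, a secreted inhibitor of leukocyte proteases, had the widest downward gap, with 41.0 and 341 CPM in ΔHD1/fl and 0.635 and 2.23 CPM in ΔHD1/- lines (log2 difference -5.70 ± 1.12 SE, limma adjusted p = 0.0923, not called). Gsta4, a glutathione transferase for lipid peroxidation products, was at 32.0 and 182 CPM against 2.02 and 1.55 CPM (adjusted p = 0.0697, limma). Both genes stayed below 3 CPM in ΔHD1/- lines and above 30 CPM in the control lines under TGFβ. Lcn2, a siderophore-binding lipocalin, was at 14.1 and 7.14 CPM in ΔHD1/fl and at 0 in both ΔHD1/- lines, at least 93.6-fold lower against 3 reads a library. Lbp, the lipopolysaccharide-binding protein, was at 16.0 and 5.54 CPM and again at 0 in both ΔHD1/- lines, at least 94.9-fold lower. Mark1, a microtubule affinity-regulating kinase, was at 15.7 and 13.2 CPM against 0.159 and 0 CPM under TGFβ, with 12.3 and 14.3 against 0 and 0.0297 CPM without cytokine and 8.18 and 15.3 against 0.0699 and 0.0405 CPM with Wnt3a. Fstl1, a secreted glycoprotein related to follistatin, was at 10.9 and 33.9 CPM against 0 and 0.108 CPM. Of the control lines, line 2 was the higher for Slpi, Gsta4 and Fstl1 and line 1 for Lcn2 and Lbp. Slc7a2, a transporter of cationic amino acids, was at 67.9 and 82.5 CPM against 6.39 and 3.46 CPM. Kif26b, a kinesin family member, was at 204 and 185 CPM against 10.2 and 23.3 CPM (adjusted p = 0.0715, limma), and Gper1, a G protein-coupled oestrogen receptor, at 9.38 and 15.0 CPM against 0.437 and 0.0360 CPM. In 41 of the 119 lower genes both ΔHD1/- lines stayed under 1 CPM.

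**Figure D2:**
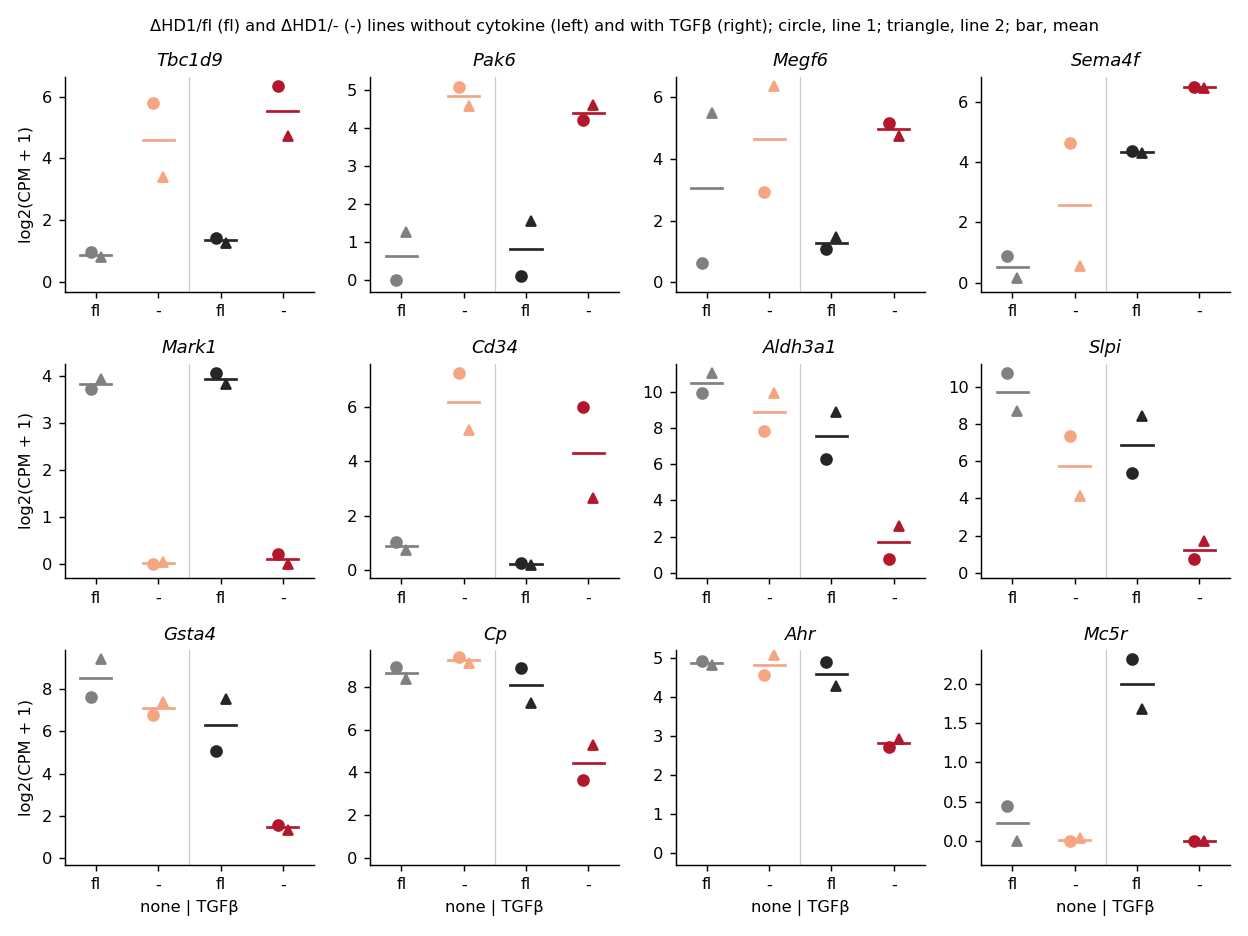
Every library of 12 named genes is shown as log2(CPM + 1) in ΔHD1/fl (fl) and ΔHD1/- (-) lines, without cytokine on the left and with TGFβ on the right of each panel (circle, line 1; triangle, line 2; bar, mean of 2). Tbc1d9, Pak6, Cd34 and Mark1 differed in both conditions, whereas Ahr and Mc5r were lower in ΔHD1/- lines under TGFβ with overlapping lines in its absence, and untreated Cp was higher in ΔHD1/- lines.

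The untreated libraries of the same lines were used to ask which differences were absent without TGFβ. There, 10.7% of all genes tested did not overlap upwards and 16.1% downwards. A difference was taken as absent if the untreated groups overlapped or were ordered the other way. Of the 54 separated genes that were higher under TGFβ, 13 (24.1%) were absent and 41 (75.9%) present without cytokine. Of the 119 lower genes, 65 (54.6%) were absent and 54 (45.4%) present. Absent in this sense does not mean equal, since the median untreated difference was 0.90 in the 13 and -0.64 in the 65 genes on the log2(CPM + 1) scale (1.86 and -2.35 under TGFβ). If absence meant instead that untreated means lay within 0.5 on that scale, 4 higher and 28 lower genes were absent. With median-of-ratios scaling there were 22 absent and 55 present higher genes, and 49 absent and 42 present lower genes. Among the absent genes, 13 of 13 higher and 64 of 65 lower genes overlapped when untreated, and 1 lower gene, Cp, was ordered the other way. With Wnt3a, 11 of the 13 higher and 55 of the 65 lower genes were absent as well. The share of all genes without overlap with Wnt3a was not worked out. These counts therefore do not show that the differences are particular to TGFβ. Among those present, 19 higher and 14 lower genes were separated by the 2-fold measure in untreated lines too, and 17 and 9 genes kept it in all 3 conditions, Wnt3a included. All 4 untreated libraries were below 1 CPM for 1 higher gene, the serotonin receptor gene Htr1b, and for 1 lower gene, Mc5r.

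The absent genes that were higher under TGFβ differed among themselves in their untreated levels. Sema4f, a transmembrane semaphorin, was close to even between lines under TGFβ, at 19.6 and 18.6 CPM against 89.5 and 86.9 CPM, while untreated lines were at 0.823 and 0.112 and 23.8 and 0.445 CPM, only ΔHD1/- line 1 being high. Megf6 overlapped without cytokine, with 0.549 and 44.5 CPM in ΔHD1/fl and 6.63 and 81.9 CPM in ΔHD1/- lines, line 2 of each genotype being high. Adra1b, an adrenergic receptor, was at 0.547 and 1.39 against 10.7 and 5.29 CPM under TGFβ and at 0.366 and 24.1 against 1.97 and 4.87 CPM untreated. Fes, a tyrosine kinase, went from 1.42 and 1.30 against 32.0 and 0.890 CPM untreated to 2.44 and 4.12 against 52.8 and 10.6 CPM under TGFβ. Lipg (endothelial lipase), Cd93 (a surface lectin) and Cth (cystathionine gamma-lyase) had smaller gaps, with 5.21 and 4.30 against 16.9 and 14.3 CPM, 1.81 and 3.16 against 8.81 and 8.46 CPM and 2.82 and 3.52 against 8.89 and 9.86 CPM. Their untreated levels were 20.4 and 4.92 against 23.1 and 10.1 CPM, 1.19 and 1.57 against 3.81 and 1.43 CPM and 4.12 and 2.39 against 5.05 and 4.10 CPM in the same order.

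The absent genes that were lower under TGFβ are given next with their change from the untreated level. Of the 65 genes, 42 were lower with TGFβ in each of the 4 lines (29.7% of all genes tested were), 55 in both ΔHD1/- lines and 42 in both ΔHD1/fl lines. The median difference between treated and untreated was -0.87 in ΔHD1/fl and -2.50 in ΔHD1/- lines on the log2(CPM + 1) scale. Of the 54 lower genes present without cytokine, 36 were lower with TGFβ in each line, with medians of -1.11 and -1.28. The absent genes were chosen for low values in treated ΔHD1/- lines, which favours this order of the medians. Aldh3a1 belonged here, with 983 and 2117 CPM in untreated ΔHD1/fl and 229.9 and 990.3 CPM in untreated ΔHD1/- lines, although it was separated with Wnt3a too, at 3617 and 3510 against 645 and 449 CPM. Rassf4, which encodes a Ras association domain protein, was at 474 and 158 against 514 and 16.4 CPM untreated and at 14.3 and 18.4 against 1.79 and 1.26 CPM with TGFβ. Mgp, the matrix Gla protein that inhibits calcification, was at 24.2 and 45.5 against 33.8 and 7.54 CPM untreated and at 8.41 and 4.19 against 0 and 0.0360 CPM with TGFβ. These 3 genes were lower with TGFβ in all 4 lines. Bhlhe41, a repressor of the circadian clock, was at 131 and 23.0 against 55.9 and 3.95 CPM untreated and at 106 and 12.6 against 1.39 and 0.936 CPM under TGFβ. Il17re, a subunit of interleukin 17 receptors, was at 64.1 and 10.9 against 16.2 and 0.119 CPM untreated and at 15.5 and 4.83 against 0 and 0.0360 CPM under TGFβ. Esyt3, an extended synaptotagmin, was at 72.3 and 21.0 against 38.0 and 0.415 CPM untreated and at 9.92 and 9.34 against 0.993 and 0 CPM under TGFβ. In Il17re and Esyt3 the untreated lines overlapped, but the differences between means on the log2(CPM + 1) scale were -2.67 and -2.43 untreated, against -3.27 and -2.91 under TGFβ. A different course was seen for Gprin3 and for Slc6a7, a proline transporter. Slc6a7 was at 2.19 and 7.35 CPM in untreated ΔHD1/fl and 9.19 and 3.95 CPM in untreated ΔHD1/- lines, and at 8.24 and 7.42 against 0.0397 and 0.252 CPM with TGFβ (log2 difference -2.95 ± 0.54 SE, adjusted p = 0.0697, limma). Gprin3 was at 2.06 and 23.2 against 10.7 and 7.51 CPM untreated and at 20.7 and 29.3 against 1.87 and 1.94 CPM with TGFβ. In both genes both ΔHD1/fl lines held more with TGFβ and both ΔHD1/- lines less, a course taken by 3 of the 65 genes, Dynap being the third. For Slc6a7, however, ΔHD1/fl line 2 hardly changed (7.35 CPM untreated and 7.42 CPM with TGFβ). Htr1b and Dynap were picked after their values were seen.

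**Figure D3:**
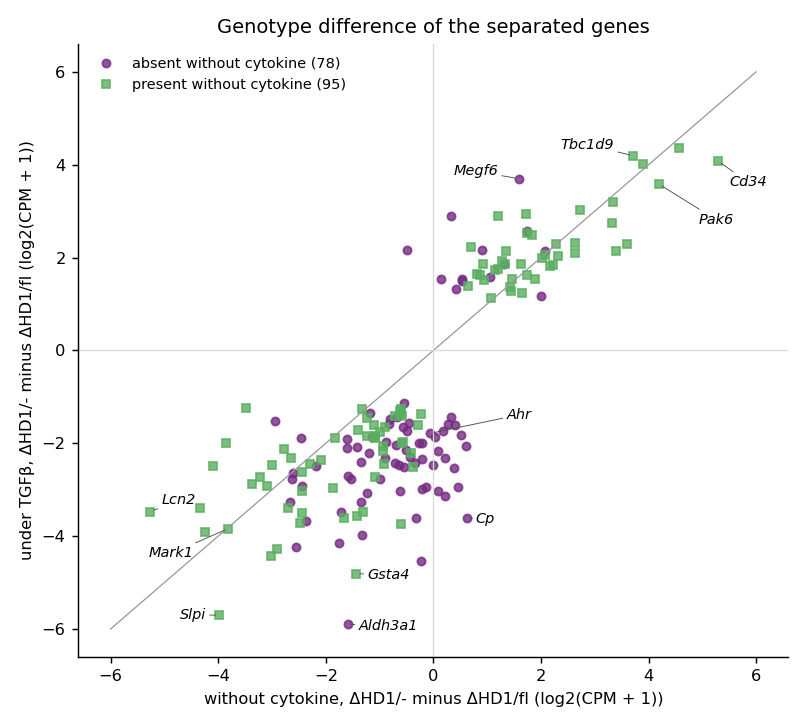
The difference between ΔHD1/- and ΔHD1/fl means on the log2(CPM + 1) scale is plotted without cytokine (horizontal) and under TGFβ (vertical) for the 173 separated genes, with a line of equality. Genes present without cytokine (green, 95) include Tbc1d9, Pak6 and Mark1, which lie near the line, and those absent (purple, 78) include Ahr, near 0 on the horizontal axis, and Cp, at 0.62 on it.

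The response itself was tested as the difference between the TGFβ responses of ΔHD1/- and ΔHD1/fl lines. In limma, 1 of 13270 genes (0.00754%) was called, Adm, which encodes the vasodilator peptide adrenomedullin. Adm was at 0 in both ΔHD1/fl lines with and without TGFβ, at 4.32 and 3.03 CPM in untreated ΔHD1/- lines and at 0.0397 and 0.252 CPM in treated ones. No fall could be seen in ΔHD1/fl lines, so the contrast only restates the fall of Adm in ΔHD1/- lines. The response of Adm differed by -2.02 ± 0.30 (SE, adjusted p = 0.0439, limma), and the call was lost with a pseudocount of 0.1 or median-of-ratios scaling, under each of which 0 genes were called (127 and 125 at an unadjusted p under 0.05), and in edgeR (0 called, 138 at an unadjusted p under 0.05). A fit that blocked on the cell line called 3 genes, all of them lower in the response of ΔHD1/- lines. They were Adm, Mc5r (-1.79 ± 0.34 SE without the block, adjusted p = 0.0452 with it) and Atg9b, an autophagy gene chosen after its values were seen. Atg9b was at 345 and 19.8 CPM in treated ΔHD1/fl lines and at 107 and 129 CPM in treated ΔHD1/- lines, with overlap. The count in the response also turned on single lines, with 0 genes called without ΔHD1/fl line 1, 15 without line 2, 11 without ΔHD1/- line 1, 4 without line 2, and 0 without any 1 of the 5 ΔHD2 lines (85 to 247 at an unadjusted p under 0.05). That a difference was absent from untreated lines is a description of 4 libraries, and the test of the response called 1 of these 78 genes, with the block only.

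Gene lists were read against all genes tested, of which 6.77% were higher and 22.7% lower without overlap in CPM, and 13.2% higher and 13.7% lower under median-of-ratios scaling. Among 23 tested genes of detoxification and the aryl hydrocarbon receptor pathway, 10 (43.5%) were lower and 0 higher in ΔHD1/- lines, with 7 lower under median-of-ratios scaling, where 13.7% of all genes were. The list median was -0.32 under TGFβ, against -0.14 over all genes, and -0.25 without cytokine. Its separated members were Aldh3a1, Gsta4, Ahr and Gstm1. Ahr, the receptor and transcription factor of the pathway, was at 28.8 and 18.5 CPM in ΔHD1/fl and 5.52 and 6.51 CPM in ΔHD1/- lines under TGFβ, at 29.4 and 27.1 against 22.6 and 32.7 CPM untreated and, again separated, at 109.7 and 266 against 53.3 and 30.4 CPM with Wnt3a. Its log2 difference was -1.79 ± 0.41 (SE, limma adjusted p = 0.128). Gstm1, another glutathione transferase, was at 6.52 and 9.12 against 1.67 and 2.20 CPM under TGFβ and at 15.2 and 69.4 against 33.0 and 48.1 CPM untreated.

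Of 11 tested secretory innate defence genes, 6 (54.5%) were lower and 0 higher, on either scaling, and the median was -0.44 (-0.58 without cytokine). Cp, the copper-carrying ferroxidase ceruloplasmin, was at 472 and 149.7 CPM in ΔHD1/fl and 11.4 and 37.9 CPM in ΔHD1/- lines under TGFβ. Untreated, the order was the other way without overlap, at 476 and 325 against 674 and 543 CPM, which made Cp the 1 gene of this kind. C3, the central complement component, was at 138 and 10.3 against 0.318 and 4.71 CPM under TGFβ and at 628 and 41.5 against 184 and 143 CPM untreated. The treated ΔHD1/- lines were the lowest of all 8 libraries for both genes. Among 11 Notch pathway genes, 4 (36.4%) were lower and 0 higher on either scaling, with a median of -0.52. The receptors Notch1 and Notch3 were at 75.6 and 76.7 against 36.2 and 5.18 CPM and at 12.1 and 1.03 against 0.199 and 0 CPM. Lfng, which glycosylates Notch receptors, was at 57.1 and 38.5 against 31.9 and 23.9 CPM and the target gene Hey1 at 1.09 and 1.21 against 0.715 and 0.936 CPM. Notch1 was the separated member, and the 4 genes were higher in untreated than in treated cells of each line, except Notch3 in ΔHD1/- line 2, which was below the 3-read floor in both. The untreated median of the list was -0.47.

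Hypoxia and glycolysis genes stood on the other side. Of 16 tested genes, 6 (37.5%) were higher and 0 lower, with a median of 0.40 (0.37 without cytokine), and 7 were higher under median-of-ratios scaling, where 13.2% of all genes were. Egln3, a prolyl hydroxylase that senses oxygen, was at 0 and 0.0710 CPM in ΔHD1/fl and 1.19 and 1.33 CPM in ΔHD1/- lines and was the only separated member. Hk2, the first enzyme of glycolysis, was at 139 and 76.4 against 156 and 154 CPM, Vegfa, the vascular growth factor, at 399 and 486 against 494 and 769 CPM, and Aldoa at 671 and 1060 against 1107 and 1169 CPM. The gaps of these last 3 were small beside the spread between lines. Adm, described above, is a further member of this list and counted among the 6 higher genes. This rested on few reads, since under TGFβ both control lines held 0 reads of Adm. The recombined lines 1 and 2 held 1 and 7 reads, the former below the 3-read floor. Proliferation genes had the highest list median, 1.14, yet 2 of 20 did not overlap (10.0% higher), and 5 with median-of-ratios scaling, where 13.2% of all genes were higher. The summed level of the list was low in ΔHD1/fl line 1 alone. The mitotic kinases Plk1 and Aurka were at 19.9 and 114 against 198 and 125 CPM and at 21.8 and 101 against 128 and 105 CPM. Without cytokine the median of the list was -0.21, and 0 were higher and 9 of 20 lower without overlap, where 10.7% and 16.1% of all genes tested were.

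The pathways under study were read next. Of 9 tested genes of the Bcl9-Pygopus-β-catenin chain and TCF/LEF factors, 1 (11.1%) was higher and 2 (22.2%) lower, Bcl9 being among the latter. Lef1 was higher, at 0.252 and 0.213 CPM in ΔHD1/fl and 8.58 and 0.432 CPM in ΔHD1/- lines, where line 1 alone was above 1 CPM, and Tcf7 was lower at 22.2 and 16.3 against 11.6 and 7.85 CPM. Of 10 Wnt target and feedback genes, 1 was higher (10.0%) and 2 lower (20.0%). The secreted Wnt inhibitor Notum was the only separated member, at 3.20 and 48.1 against 0.119 and 0.252 CPM under TGFβ and 84.1 and 432 against 60.4 and 58.9 CPM untreated. Nkd2, another inhibitor, was lower at 102 and 10.2 against 5.72 and 2.34 CPM. Axin2, a common Wnt readout, was higher at 0.252 and 0.320 CPM in ΔHD1/fl and 0.516 and 1.87 CPM in ΔHD1/- lines, near the limit of 1 CPM.

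Of 23 TGFβ ligands, receptors, Smads and regulators, 2 (8.70%) were higher and 7 (30.4%) lower, with a median of -0.37, and 5 were lower under median-of-ratios scaling. Ltbp1, which anchors latent TGFβ in the matrix, was higher at 251 and 600 against 679.8 and 1227 CPM. Among the lower genes the co-receptor Tgfbr3 was at 18.8 and 39.7 against 7.23 and 12.8 CPM, the inhibitory Smad6 at 5.72 and 8.52 against 3.93 and 3.13 CPM and the ubiquitin ligase Smurf2 at 234 and 322 against 140.4 and 170.1 CPM. Smad7 overlapped, at 319 and 112 against 120.3 and 124 CPM. Of 20 TGFβ target genes 3 (15.0%) were higher and 1 (5.00%) lower, and with median-of-ratios scaling 3 and 0. Among these were the matrix protein Tnc at 6599 and 1900 against 15810 and 9962 CPM, the fibronectin receptor subunit Itga5 at 621 and 1171 against 1603 and 4389 CPM and the Smad inhibitor Ldlrad4, which was lower at 126 and 43.9 against 40.5 and 37.7 CPM. Tnc and Itga5 were above their untreated level in all 4 lines. Fn1 (fibronectin) took 2.55% to 4.69% of all reads in the 4 treated libraries and overlapped, at 46940 and 25480 against 30110 and 31590 CPM.

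Cell state was read from 4 lists, beside 6.77% higher and 22.7% lower without overlap over all genes tested. Of 20 epithelial genes 2 were higher and 2 lower, of 18 mesenchymal and EMT genes 2 and 1, of 12 basal genes 1 and 0, and of 13 luminal genes 3 (23.1%) and 3 (23.1%). The luminal keratin Krt8 was at 748 and 4.54 CPM in ΔHD1/fl and 1370 and 2884 CPM in ΔHD1/- lines, ΔHD1/fl line 2 being nearly without it, and Krt18 overlapped at 484 and 1.03 against 1079 and 29.2 CPM. Krt19, which counted as lower, was at most 0.0710 CPM, below the 3-read floor. The desmosomal Dsp was lower at 314 and 109 against 85.8 and 75.4 CPM. The receptor kinase Axl was higher at 8.83 and 991 against 1564 and 1003 CPM, ΔHD1/fl line 1 being low, and Cdh2 (N-cadherin) overlapped at 15.8 and 263 against 123 and 299.5 CPM. The luminal Esr1 (oestrogen receptor α), with 4.88 and 5.15 against 0.874 and 1.94 CPM, Erbb2, with 181 and 166 against 132 and 75.2 CPM, and Tfap2c, with 10.0 and 0.852 against 0.119 and 0.252 CPM, were lower and Xbp1, with 106 and 162 against 302 and 171 CPM, higher.

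Matrix, immune and guidance genes were mixed. Over all genes tested 6.77% were higher and 22.7% lower without overlap, and none of these lists exceeded the latter share. Of 21 collagens and collagen-modifying enzymes 1 was lower and 0 higher, Col6a2, at 4.54 and 48.6 against 0.0397 and 2.16 CPM. Of 20 matrix proteases and inhibitors 4 (20.0%) were higher and 1 lower, among them Adamts1 at 7.74 and 12.5 against 15.8 and 56.8 CPM and, lower, the metalloprotease inhibitor Timp3 at 1845 and 553 against 156 and 508 CPM, which overlapped under median-of-ratios scaling (4 higher and 0 lower). Of 22 interferon and antigen presentation genes 5 were lower (22.7%) and 0 higher, with a median of -0.83 under TGFβ and 0 without cytokine. The peptide transporter Tap1 was at 32.7 and 14.2 against 7.42 and 11.8 CPM. Under median-of-ratios scaling 4 were lower and 1 higher. Of 18 chemokines and cytokines 3 were lower and 1 higher. The interleukin 1 receptor antagonist Il1rn was lower at 10.5 and 12.1 against 0.437 and 3.20 CPM and the chemokine Cxcl12 higher at 71.9 and 4.54 against 98.8 and 72.7 CPM. Of 16 p53 target genes and genes of the Cdkn2a locus 2 were lower and 0 higher, the p53 ligase Mdm2 at 562 and 185 against 145 and 124 CPM and Phlda3 at 424 and 283 against 128 and 198 CPM. Of 23 semaphorins, plexins and ephrins 2 were higher and 4 lower, with Ephb2, an ephrin receptor, higher at 15.9 and 48.5 against 144 and 112 CPM and Sema4a lower at 2.61 and 5.33 against 0.119 and 0.288 CPM. The list does not hold every semaphorin, and Sema4f, described above as higher, is not among its members.

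**Figure D4:**
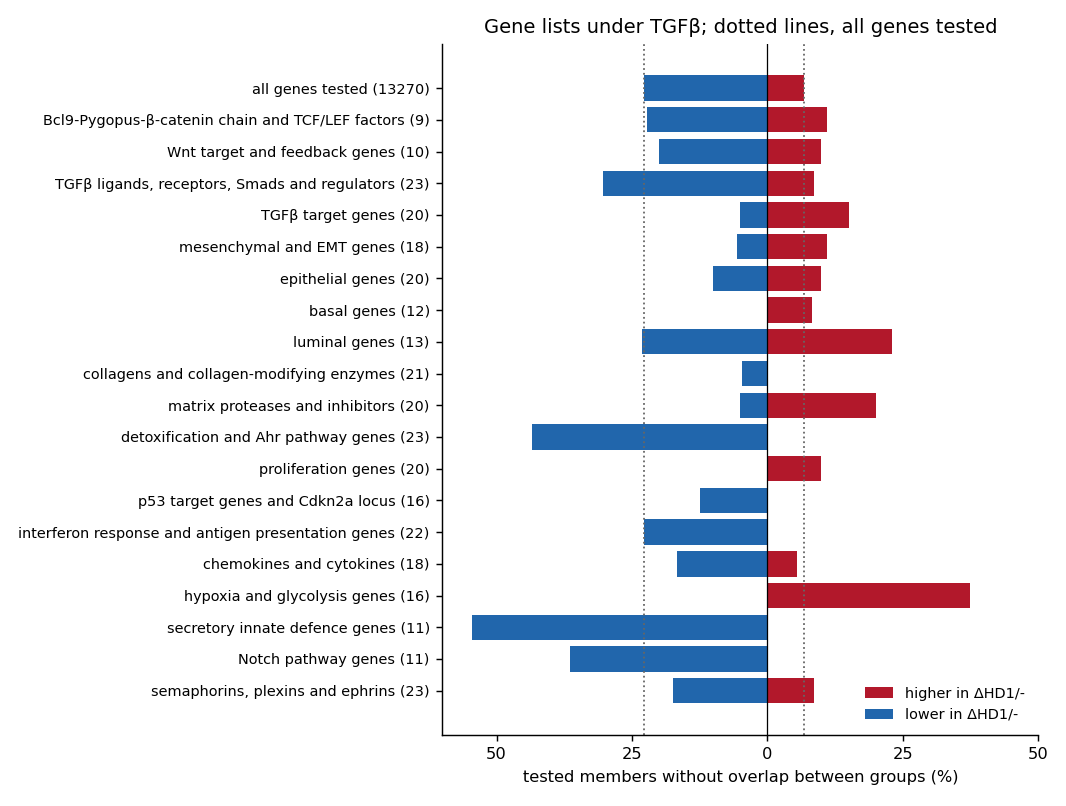
Bars give the percentage of the tested members of each list (number in brackets) whose ΔHD1/- and ΔHD1/fl libraries did not overlap under TGFβ, lower in ΔHD1/- to the left and higher to the right, in CPM without further scaling. Dotted lines mark all genes tested (22.7% lower, 6.77% higher), and detoxification and secretory defence genes reach farthest to the left and hypoxia and glycolysis genes farthest to the right.

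The ΔHD2 lines, in which the β-catenin-binding domain is deleted instead, offered the same comparison under TGFβ in other libraries (2 ΔHD2/fl and 3 ΔHD2/- lines). Lines 2 and 3 of ΔHD2/- were nearly alike, with a chi-square per degree of freedom of 16.13, against 365.9 and 339.1 with line 1. They entered the fits as 2 lines because the labels give them so, and whether they are separate lines was not tested. There, 13.2% of genes tested were higher and 13.6% lower without overlap. Of the 54 genes separated upwards in ΔHD1/- lines, 2 (3.70%; Chst3 and Spsb4) were also higher in ΔHD2/- lines and 16 (29.6%) were lower, while 36 overlapped. Of the 119 separated downwards, 26 (21.8%) were also lower, 11 (9.24%) were higher and 82 overlapped. Aldh3a1 was lower in both families, with 30.9 and 8.13 CPM in ΔHD2/fl and 0.681, 1.33 and 0.834 CPM in ΔHD2/- lines, and so was Mark1, with 11.5 and 13.0 CPM against 3.94, 0 and 0 CPM. Pak6 ran the other way, with 24.9 and 10.7 CPM in ΔHD2/fl and 1.14, 0 and 0 CPM in ΔHD2/- lines, so that both ΔHD2/fl lines lay above both ΔHD1/fl lines. Bnc2 had the same order, at 9.98 and 6.89 CPM against 0.265, 0 and 0 CPM. Tbc1d9 was high in all 5 ΔHD2 libraries, at 118 and 126 CPM against 113, 107 and 102 CPM, so that of the 9 TGFβ-treated libraries only the 2 of ΔHD1/fl lay below 2 CPM. The test of the difference between the families called 22 of 13270 genes (0.166%) in limma, among them 5 of the 54 and 2 of the 119 separated genes. Of these, Fbxl7, Syt11 and Etfbkmt fell outside the naming rule, as did Chst3 and Spsb4, and were named after their values were seen. Pak6 (difference 7.34 ± 0.77 SE), Bnc2 (6.05 ± 1.09), Tbc1d9 (4.38 ± 0.86) and Mc5r (-1.81 ± 0.32) were called, and Aldh3a1 (-2.76 ± 1.30) was not. In edgeR 0 genes were called (1091 with an unadjusted p under 0.05), and limma called 564 without ΔHD2/- line 1 but 3 without line 2 and 3 without line 3. Of the 4 genes, Pak6 then remained called (adjusted p = 0.00889 and 0.00926 in limma), whereas adjusted p-values of Bnc2, Tbc1d9 and Mc5r were 0.222 to 0.355.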

How the data were processed

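RNA was measured by stranded mRNA sequencing in 27 libraries, of which the 12 of the ΔHD1 lines and the 5 TGFβ-treated libraries of the ΔHD2 lines bear on the comparison. The authors aligned reads to mm10 with STAR (per the submitters' processing notes), kept unique hits, counted reads starting in RefSeq exons with QuasR and deposited CPM values, which sum to 1000000 in each library. All values (100%) were whole multiples of 1 read within 0.01, so reads were recovered for edgeR. Of 24454 Entrez identifiers 24374 matched a symbol in RefSeq's GRCm38.p6 annotation.

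The 13270 genes with at least 1 CPM in 2 libraries were log-transformed as log2(CPM + 1) and fitted by limma (version 3.58.1, R 4.3.3; 12 group means, trend and robust settings), which understates the change of low genes. Calls needed an adjusted p up to 0.05 and a log2 difference of 1 or more. Benjamini-Hochberg adjustment ran over all genes tested. A pair of groups was taken not to overlap if every library of one was above every library of the other, and separated if the nearest differed by a log2 gap of at least 1. The contrasts were ΔHD1/- against ΔHD1/fl with and without TGFβ, the difference in TGFβ response, and the difference between the HD1 and HD2 families. P-values rest on the spread between the lines of a group, pooled over 12 groups. The main fit counted libraries of 1 line under different treatments as independent, so it overstates the number of independent lines. Libraries of 1 cell line with and without TGFβ shared their deviations from the means of their groups (correlations of 0.634 to 0.723 over genes). Per the labels the number stands for a line, so the response was also fitted with line as a block.

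Genes and lists were chosen with earlier results of these data known. Named are Bcl9, Bcl9l, Pygo1, Pygo2 and Ctnnb1, all called genes, the 12 separated genes each way with the widest gaps, the 8 each way absent without cytokine with the widest gaps, up to 4 members of each of 23 lists with the largest difference among those without overlap, and 10 marker genes. Some genes that this rule takes are not reported here. The settings varied were the scaling (median-of-ratios), the pseudocount (0.1), the filter (none), the compared libraries only, replicate blocks, a looser threshold, other gaps, edgeR 4.0.16 (TMM) on recovered reads, and leaving out each line. The limma fit of the TGFβ comparison was run on simulated counts with known changes, and the gap measure on known cases. The simulated counts held no effect of cell line, so they do not show how p-values behave in these data. The other contrasts and edgeR were not simulated. Whether counting used strand is not given in the sources used here, so that overlapping genes such as Tbc1d9, Esyt3 and Rassf4 may share reads with neighbours.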

Additional observations from a re-analysis of the deposited data

Results flagged for a closer look

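The response of Adm to TGFβ differed between genotypes by -2.02 on the log2(CPM + 1) scale in limma (adjusted p = 0.0439). Adm was above 3 CPM in untreated ΔHD1/- lines and below 1 CPM in the other ΔHD1 libraries with or without TGFβ. In ΔHD1/fl lines it was at 0 in both conditions, so that no fall could be measured there. The genotype difference under TGFβ differed between the HD1 and HD2 families for 4 of the named genes, each tested as the difference of both differences in limma. It was 7.34 for Pak6, which was higher in ΔHD1/- and lower in ΔHD2/- lines than in their controls (adjusted p = 0.000210). It was 6.05 for Bnc2, which had the same order (adjusted p = 0.0302), 4.38 for Tbc1d9, which was high in all 5 TGFβ-treated ΔHD2 libraries (adjusted p = 0.0494), and -1.81 for Mc5r, which was at 0 to 0.355 CPM in those libraries (adjusted p = 0.0302). Without ΔHD2/- line 2 or line 3, which were nearly alike, Pak6 alone of these 4 remained called (adjusted p = 0.00889 and 0.00926, limma), and Adm was not called in the response without any 1 of the ΔHD2 lines. No cause was tested.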

How the results depend on the processing

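Only 2 numbered pairs tie ΔHD1/- to ΔHD1/fl lines. Deviations of same-numbered lines correlated across genes at 0.472 without cytokine and 0.407 with Wnt3a, but at only 0.117 under TGFβ. A link between the numbers is thus a hint from the data only. With the replicate block in the 12 ΔHD1 libraries, 0 genes were called under TGFβ (1331 at an unadjusted p under 0.05) and 0 without cytokine (819), against 4 and 9. The 4 compared libraries alone gave 0 and 0 (338 and 264 at an unadjusted p under 0.05), and edgeR 0 and 1. Without the filter 15 genes were called under TGFβ, 14 without cytokine, 2 in the response and 41 between the families. A pseudocount of 0.1 gave 5 without cytokine and 0 in the response, where median-of-ratios scaling and edgeR gave 0 and cell line as a replicate block gave 3, against 1. Between the families edgeR gave 0, against 22. A looser call, unadjusted p up to 0.05 and 1.5-fold, gave 927, 500, 126 and 1291 genes. Leaving out 1 line at a time (the ΔHD2 lines chosen after seeing the data, except between the families) left ΔHD1 and ΔHD2/fl groups with 1 library, assumed to vary like the other groups, and gave 1 (without ΔHD2/- line 2 or 3) to 221 called genes under TGFβ (35 without ΔHD1/fl line 1, 221 without line 2, 151 without ΔHD1/- line 1, 52 without line 2), 5 (without ΔHD2/- line 2 or 3) to 229 (without ΔHD1/fl line 2) without cytokine, 0 to 15 in the response and 3 (without ΔHD2/- line 2 or 3) to 564 (without ΔHD2/- line 1) between the families. Genes without overlap were 1749 higher and 1821 lower under median-of-ratios scaling, against 899 and 3014. Separated genes, 54 higher and 119 lower, became 122 and 370 with a 1.5-fold gap, 8 and 25 with a 4-fold gap and 111 and 228 with a pseudocount of 0.1. Those absent without cytokine, 13 and 65, became 41 and 182, 2 and 10, and 38 and 132 in that order, 22 higher with median-of-ratios scaling, and 4 and 28 when absence meant untreated means within 0.5 on the log2 scale. Leaving out ΔHD1 lines, chosen after seeing the data, loosens these counts by construction, to 2124 to 3356 and 5446 to 5763 without overlap, 159 to 587 and 416 to 867 separated, and 22 to 210 and 94 to 304 absent. Of 1560 values of the 104 named genes under the alternatives, 1483 kept direction and side of the threshold, 35 passed it, 25 of the 4 called genes lost the call, and 17 of uncalled genes changed sign, under median-of-ratios scaling Ctnnb1 and Fn1, in edgeR Ctnnb1, and the others on leaving out a line. The cause was not tested. With 2 lines a group, depth is not the main limit above about 1 CPM, and lower genes are bounded by the 3-read floor.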
